A study of Mus musculus with 6 samples.

Results

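miR-378a is a microRNA (miRNA) hairpin in the gene Ppargc1b that yields a mature RNA from each of its arms, miR-378a-3p and miR-378a-5p. These 2 members, listed as mmu-miR-378a-3p and mmu-miR-378a-5p, were found by name among the 1247 mouse miRNAs of an Agilent array. The kidney of male C57BL/6 mice, a standard inbred strain, was compared between 20 months of age (aged, 3 arrays) and 2 months of age (young, 3 arrays), and the labels give no treatment or altered gene in either group. Each array was hybridised with Cy3-labelled total RNA of 1 preparation. Whether the preparations of a group came from separate mice is not stated, and the spread between arrays may be partly technical. In bulk RNA, fewer cells that hold a miRNA and less of it per cell cannot be told apart. The members were picked by name with earlier results of these arrays known, and their age difference and arm ratio were part of that choice. These values are therefore given as a description, with no test.

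A miRNA is cut from a hairpin transcript, and 1 or both arms are loaded into Argonaute, where the seed (bases 2 to 8) pairs with target messages. Ppargc1b encodes PGC-1 beta, a coactivator of genes for mitochondria and fatty acid oxidation. Its intronic miRNA is known to be made together with the host transcript and is abundant in muscle and brown fat. In mice miR-378a-3p is known to repress Crat, an enzyme of mitochondrial fatty acid metabolism, and miR-378a-5p to repress Med13, a subunit of the Mediator complex. In human breast cancer cells miR-378a-5p is also known to repress ERR gamma and GABPA, partners of PGC-1 beta in the control of respiration.

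The paralogues miR-378b, miR-378c and miR-378d are closely similar in sequence to the 3p arm, and the array carries probes for each. Their mature sequences are shown because the results for the 3p arm are set beside those of these probes. They were taken from RefSeq (GRCm38.p6), in which 3 of the 5 names of the family were matched, with the seed in capitals.
miR-378b: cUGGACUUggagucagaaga
miR-378c: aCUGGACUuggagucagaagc
miR-378d: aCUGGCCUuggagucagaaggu
miR-378b lies at chr11:88352839-88352858 on the plus strand, miR-378c at chr14:46954905-46954925 on the minus strand and miR-378d at chr10:126710355-126710376 on the minus strand. The 3 share a run of 14 bases, cuuggagucagaag. Counted from 1 at the 5′ end, miR-378c and miR-378d differ by A6C, inside the seed, and by C21G. miR-378b starts 1 base further along, so that the seed letters of miR-378c begin at its base 1.

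The labelled tissue was checked against 8 miRNAs typical of kidney. Of these, 7 were detected and tested (miR-192-5p, miR-194-5p, miR-30a-5p, miR-10a-5p, miR-10b-5p, miR-196b-5p and miR-204-5p), and miR-215-5p was not well above background on any array. No spot was saturated (0 on each array), and 177 to 206 miRNAs were detected on the aged arrays and 193 to 209 on the young ones. Precision is limited by having 3 arrays per group. Across all 193 tested miRNAs, aged arrays correlated with each other at 0.972 to 0.989 and young arrays at 0.998. The 3 young arrays and aged array 1 lay in slide row 1, and aged arrays 2 and 3 in slide row 2.

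In aged kidney both arms of miR-378a were lower by about the same amount, 1.29-fold for the 3p arm and 1.24-fold for the 5p arm, with the processing used here. To make arrays comparable, each signal was expressed relative to the 75th percentile of 315 probes detected everywhere (those marked well above background on each of the 6 arrays), and log2 was taken. miR-378a-3p had log2 scaled signals of -0.77, -0.89 and -0.53 on aged arrays 1, 2 and 3, and of -0.46, -0.41 and -0.22 on young arrays 1, 2 and 3. The 3 aged values were all lower than the 3 young values, with aged array 3 nearest to the young ones. The mean was -0.73 ± 0.18 in aged and -0.36 ± 0.13 in young kidney (SD, n = 3 each). The log2 difference, aged minus young, was -0.37 ± 0.12 (limma SE). With a 75th percentile of all probes it was 0.044 ± 0.30 (limma SE), a sign that is not resolved.

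The weaker 5p arm put the arrays of each group in the same order as the 3p arm. miR-378a-5p had log2 scaled signals of -3.54, -3.70 and -3.40 on aged arrays 1, 2 and 3, and of -3.30, -3.26 and -3.15 on young arrays 1, 2 and 3. Again the groups did not overlap, aged array 2 was the lowest and young array 3 the highest. The mean was -3.55 ± 0.15 in aged and -3.24 ± 0.08 in young kidney (SD, n = 3 each). The log2 difference was -0.31 ± 0.10 (limma SE), and 0.10 ± 0.30 (limma SE) with the 75th percentile over all probes.

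**Figure D1:**
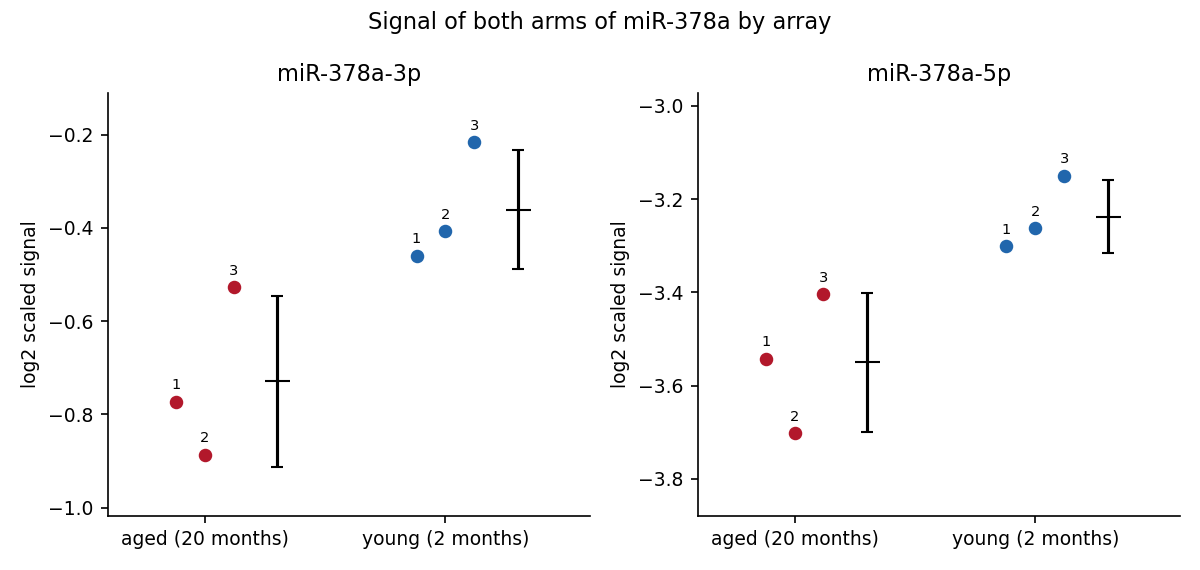
Log2 scaled signal of miR-378a-3p (left) and miR-378a-5p (right) on each array, aged left of young, with array numbers above the points and mean ± SD beside them (n = 3 each; both panels span the same range). With this scaling the groups do not overlap, for the 3p arm with aged values up to -0.53 and young values from -0.46. With the 75th percentile over all probes the mean differences were 0.044 and 0.10.

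Before any scaling the groups overlapped. The summed intensity of miR-378a-3p was 685, 1111 and 891 units on the aged arrays, against 1029, 908 and 1026 units on the young arrays. That of miR-378a-5p was 101, 158 and 121 units on the aged arrays, against 144, 125 and 134 units on the young arrays. Aged array 2 held the highest unscaled value of both arms and was also the brightest array as a whole, with a 75th percentile of 2054 units, the highest of the 6 and 1.75 times the lowest. In the table of log2 values processed by the authors, miR-378a-3p stood at 1.80, 1.85 and 2.10 in aged and at 2.11, 2.12 and 2.29 in young kidney. There miR-378a-5p stood at -0.96, -0.97 and -0.77 in aged and at -0.73, -0.74 and -0.65 in young kidney. The groups were again apart in the authors' values, though for the 3p arm the highest aged and the lowest young value nearly touched.

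The ratio of the arms, both read on the same array, is untouched by any scaling that divides an array by a single number. The signal of miR-378a-3p was 6.82, 7.04 and 7.35 times that of miR-378a-5p on aged arrays 1, 2 and 3, and 7.17, 7.23 and 7.64 times on young arrays 1, 2 and 3. The groups overlapped, and the mean ratio was 7.07 ± 0.27 in aged and 7.35 ± 0.26 in young kidney (SD, n = 3 each). Probes differ in how strongly they bind, so the ratio is one of signals and not of molecules, and only its change between ages is read. On the log2 scale the arm difference was 2.82 ± 0.054 in aged and 2.88 ± 0.050 in young kidney (SD, n = 3 each), a change of -0.056 ± 0.043 (SE). The change was -0.11 under quantile normalization, which is not such a scaling, -0.11 in the fit blocked on slide row and -0.093 with normexp background correction. The noise between spots alone gave each array's log2 ratio an error of 0.024 to 0.037, which is of the same order as the spread between arrays. The change of -0.056 was thus about the size of the SD between arrays of a group, and larger in the settings just named. Whether the arm ratio changed with age was not tested. Both arms moved together from array to array.

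Set beside other hairpins, miR-378a was neither the steadiest nor the most variable. On all 6 arrays both arms were detected for 10 hairpins, with a median absolute change of the arm difference of 0.053 between ages. The change ran from -0.056 in miR-378a to 0.15 in miR-22, and 5 of the other 9 hairpins had a smaller absolute change than miR-378a. The change of miR-22 was -0.039 with quantile normalization. Over the 6 arrays the log2 arm difference of miR-378a had an SD of 0.056, and 2 hairpins, miR-30a and miR-30e, had a smaller one. Of the 10 hairpins 4 had lower aged values for both arms. In 7 of the 10 the 3p signal was the stronger one.

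**Figure D2:**
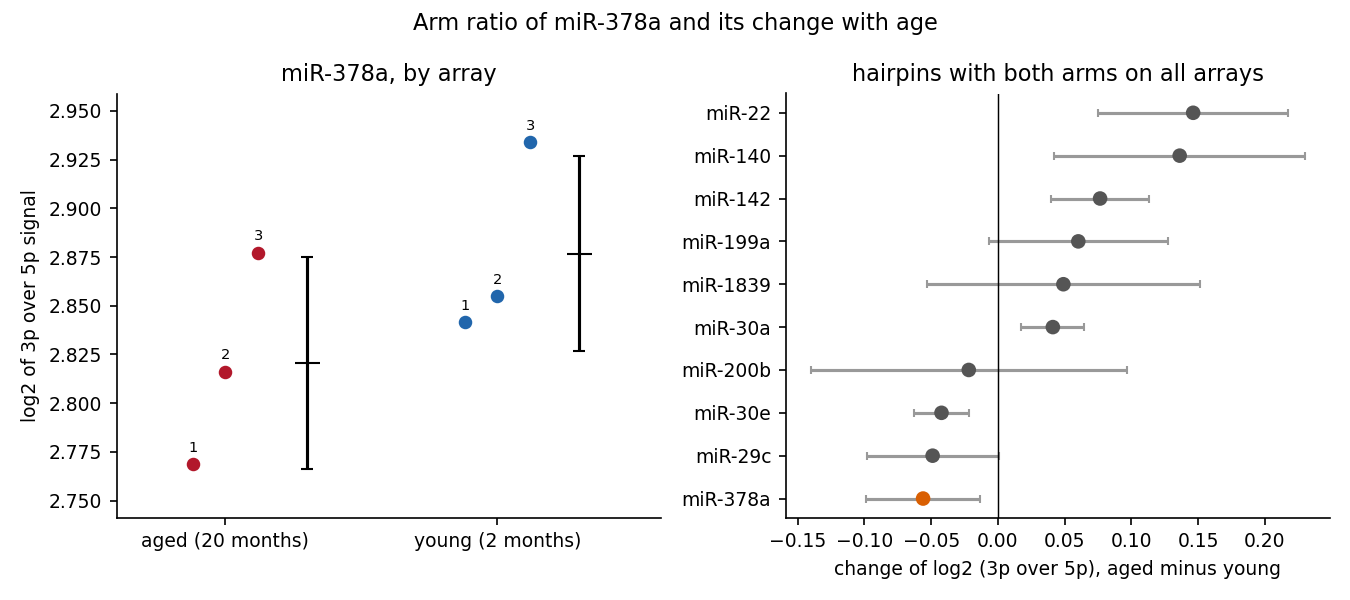
Left, log2 of miR-378a-3p over miR-378a-5p signal on each array, aged left of young, with array numbers and mean ± SD (n = 3 each). Right, change of that difference, aged minus young, for the 10 hairpins with both arms on all arrays, with SE bars and miR-378a in orange. The groups overlap at left, and the change is -0.056 ± 0.043 (SE).

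Each arm was read by 2 probes with 20 spots each, and the probes gave like differences. For miR-378a-3p the dimmer probe differed by -0.36 and the brighter by -0.37 (log2, aged minus young). For miR-378a-5p the dimmer probe differed by -0.28 and the brighter by -0.33. The spots of a 3p probe varied by 3.54 to 7.51% (coefficient of variation) around intensities of 299 to 633 units. The 5p probes were closer to background, at 41.2 to 90.0 units, and their spots varied by 7.66 to 17.1%. After outlier spots were left out, 16 to 20 spots per probe and array remained, and each of the 4 probes was well above background on all 6 arrays. The probes of an arm share their target, so they are not replicates of the age comparison.

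The paralogue probes followed the 3p arm of miR-378a. miR-378b, which lies in another part of the genome, had log2 scaled signals of -0.84, -0.81 and -0.64 on aged arrays 1, 2 and 3, and of -0.48, -0.51 and -0.33 on young arrays 1, 2 and 3. miR-378d had -0.96, -0.90 and -0.69 on the aged arrays, and -0.56, -0.57 and -0.39 on the young arrays. miR-378c, read by a single detected probe near the limit, had -4.86, -4.95 and -4.68 on the aged arrays, and -4.51, -4.56 and -4.38 on the young arrays. In each of the 3 paralogues the groups did not overlap, with aged array 3 nearest to the young ones, as for miR-378a. The differences were -0.32 ± 0.092 for miR-378b, -0.35 ± 0.099 for miR-378c and -0.34 ± 0.10 for miR-378d (limma SE, n = 3 per group). None passed the threshold of 0.05 (limma adjusted p = 0.0814, 0.0814 and 0.088). At an unadjusted limma p under 0.05 the count was 3 of 3, against 25.4% of all tested miRNAs. Of all tested miRNAs, 20.2% had all aged arrays lower than the young ones. Since the paralogue signals followed the 3p arm, these counts are not separate from the choice of the members. miR-378c passed with outlier spots kept (-0.41, limma adjusted p = 0.0413). With the 75th percentile over all probes the differences were 0.089, 0.067 and 0.071, and miR-378c stood at 0.14 under quantile normalization.

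The paralogue signals kept a similar distance from miR-378a-3p on each array. The log2 signal of miR-378b less that of miR-378a-3p was between -0.12 and 0.078 on all 6 arrays, with an SD of 0.075. That of miR-378d less miR-378a-3p was between -0.19 and -0.014, with an SD of 0.065. For both paralogues the highest value was on aged array 2. The signal of miR-378c less that of miR-378a-3p was between -4.17 and -4.05, with an SD of 0.051. Given the shared 14 bases, RNA of 1 member may bind the probes of another, and how much of the signal did so was not tested. Over the family 9 of 10 probes were well above background on all arrays. In 9 of these 9 the aged arrays were all lower than the young ones with the scaling used here, with differences from -0.37 to -0.28. Counted by miRNA, the same order of the groups was found in 20.2% of all tested miRNAs.

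**Figure D3:**
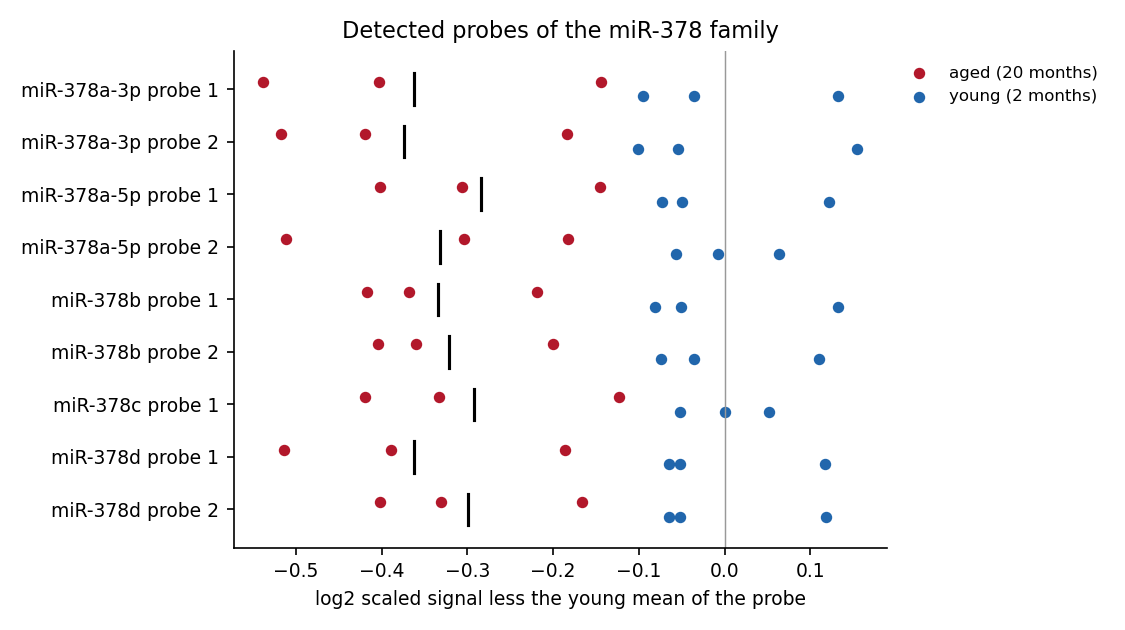
Log2 scaled signal of the 9 detected probes of the miR-378 family on each array, less the young mean of the same probe, with aged arrays in red drawn above young arrays in blue. Black bars mark the aged mean. With this scaling the aged points lie left of the young points for each of the 9 probes, with means between -0.37 and -0.28. The summed signals of miR-378a, miR-378b, miR-378c and miR-378d turned to between 0.044 and 0.10 with the 75th percentile over all probes.

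Against the whole array the differences of miR-378a were on the low side but well inside the spread. The 193 tested miRNAs had a median difference of -0.083, and 128 were below 0. Of all tested miRNAs 16.6% had a lower difference than miR-378a-3p and 22.8% a lower one than miR-378a-5p. For 2 of 2 members the aged arrays were all lower than the young ones, as in 20.2% of all tested miRNAs, while in 10.4% the aged arrays were all higher. At a limma adjusted p under 0.05, 7.77% of all tested miRNAs were called, 8 higher (4.15%) and 7 lower (3.63%). At an unadjusted limma p under 0.05 the share was 25.4%. Since this contrast belongs to the choice of the members, their own limma outcomes are not given. For the same reason nothing is read from the order of their groups. The split of 8 higher and 7 lower was 18 and 3 with the median over detected probes, 19 and 2 under quantile normalization and 10 and 0 in the authors' values. The count of 15 was 39 without aged array 1, 9 without aged array 2, 6 without young array 1, 5 without young array 2 and 8 without young array 3.

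**Figure D4:**
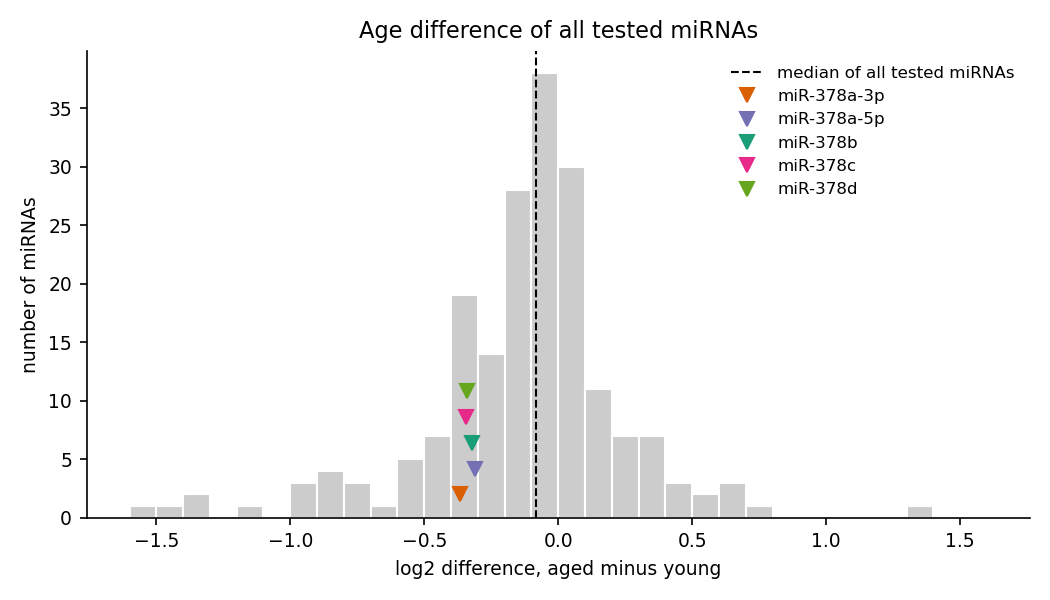
Histogram of the log2 difference, aged minus young, of the 193 tested miRNAs, with the median of -0.083 as a dashed line and the 5 miR-378 miRNAs as triangles, whose height has no meaning. The 5 lie together between -0.37 and -0.31, left of the median. With the 75th percentile over all probes they lay between 0.044 and 0.10, and the median at 0.33.

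The sign of the difference depended on the scaling. Taking the 75th percentile over all probes, most of which are undetected, moved the median of all tested miRNAs to 0.33. The members moved to 0.044 and 0.10, each with a limma SE of 0.30, so their sign there is not resolved. Less the median of all tested miRNAs, miR-378a-3p stood at -0.29 and miR-378a-5p at -0.23, values that a scaling by a single number per array cannot move. Quantile normalization, which can move them, gave -0.21 and -0.099, and normexp gave -0.22 and -0.13. In a fit blocked on slide row the differences were -0.41 ± 0.18 for the 3p arm and -0.30 ± 0.15 for the 5p arm (limma SE). Within slide row 1 they were also -0.41 and -0.30. In both fits these differences rest on aged array 1 alone, since it is the single aged array in that row. Row 2 holds aged arrays only and gives no value.

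**Figure D5:**
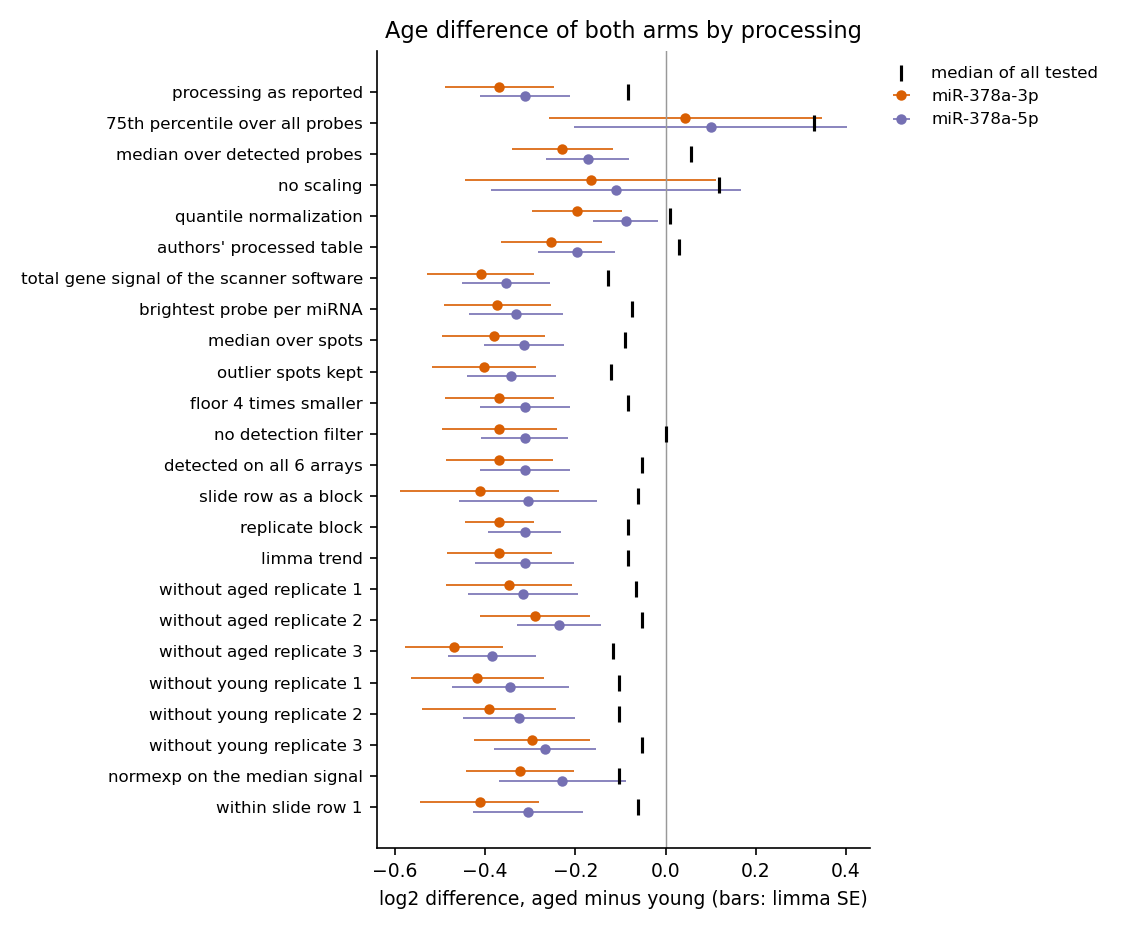
Log2 difference, aged minus young, of miR-378a-3p (orange) and miR-378a-5p (violet) in the processing as reported and in 23 alternatives, with limma SE bars, and the median of all tested miRNAs as black ticks. Both arms lie below 0 in each setting but the 75th percentile over all probes, where they stand at 0.044 and 0.10 and the median at 0.33. The distance from the median is the same by construction where only the number that divides each array was changed. Over all settings it ran from -0.37 to -0.21 for the 3p arm and from -0.31 to -0.099 for the 5p arm. The values of -0.21 and -0.099 are those under quantile normalization. Those of -0.37 and -0.31 come from the setting with no detection filter. There the median was 0 over 1247 miRNAs, most of them undetected.

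Ppargc1b spans the hairpin in the RefSeq annotation, which was used for names and neighbours only because its assembly differs from the build of the array design. The array carries 6 mature miRNAs from hairpins within 1000000 bases of it, and 2 of them were tested. Both come from the pair of hairpins known for their abundance in smooth muscle. miR-143-3p stood at -0.27 ± 0.094 (limma adjusted p = 0.12) and miR-145a-5p at -0.25 ± 0.095 (limma adjusted p = 0.149), and in both the aged arrays were all lower than the young ones. Neither passed the threshold. Both had an unadjusted limma p under 0.05, against 25.4% of all tested miRNAs, and 20.2% of all tested miRNAs had all aged arrays lower. The 2 differences turned to 0.14 and 0.16 with the 75th percentile over all probes.

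Other miRNAs that lie in introns of metabolic or muscle genes were read beside miR-378a. Of 7 listed, 3 were tested and 0 passed by limma (0 also at an unadjusted p under 0.05), with a median of 0.055 against -0.083 for all tested miRNAs. miR-107-3p and miR-103-3p, from introns of pantothenate kinase genes, stood at 0.071 ± 0.090 and 0.055 ± 0.10 (limma adjusted p = 0.641 and 0.791). In the fit blocked on slide row, which rests on aged array 1 alone, they were -0.014 and -0.084. Without aged array 3 miR-103-3p was -0.018. miR-33-5p, from an intron of the sterol regulator Srebf2, stood at -0.20 ± 0.18 (limma adjusted p = 0.488), and was not detected on 1 of the 6 arrays. The sign of miR-33-5p turned under 3 scalings, to 0.21 with the 75th percentile over all probes, 0.37 under quantile normalization and 0.0037 without scaling. It also rested on single arrays, at -0.040 without aged array 3 and -0.38 without aged array 2. The heart and muscle miRNAs miR-208a-3p, miR-208b-3p and miR-499-5p were not well above background on any array.

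A broader list of 23 miRNAs known from brown fat, mitochondria or lipid metabolism had 17 tested members. Of these miR-34a-5p rose and miR-455-3p, miR-455-5p and miR-181c-5p fell, 1 higher and 3 lower, where 7.77% of all tested miRNAs were called. The median was -0.0034, against -0.083 for all tested miRNAs. miR-455-5p, which promotes brown fat formation in mice together with its opposite arm, fell by 0.80 ± 0.10 (limma adjusted p = 0.00705). It was detected on 4 of the 6 arrays, so it entered the fits through 1 age only. Its aged mean of -4.80 lay near the floor of -5.22, so the size of its fall is uncertain. miR-455-3p fell by 0.87 ± 0.15 (limma adjusted p = 0.0235). miR-181c-5p, which in rat heart cells acts on a transcript inside mitochondria, fell by 0.49 ± 0.094 (limma adjusted p = 0.0258). miR-34a-5p, a target of p53, rose by 0.71 ± 0.12 (limma adjusted p = 0.0235). miR-338-3p, known from rat neurons to act on a subunit of cytochrome c oxidase, stood at 0.31 ± 0.078 (limma adjusted p = 0.0556). It passed with the median over detected probes (0.45) and under quantile normalization (0.65), and stood at 0.015 with normexp (limma adjusted p = 0.927). When arrays were left out 1 at a time, miR-455-5p passed each time, with the same limit of detection. The calls of miR-455-3p were lost without aged array 2 (-0.79) and without any 1 of the young arrays (-0.86, -0.88 and -0.88). Those of miR-34a-5p were lost without aged array 2 (0.69), aged array 3 (0.64), young array 2 (0.63) or young array 3 (0.68). Those of miR-181c-5p were lost without aged array 3 (-0.50) or any 1 of the young arrays (-0.47, -0.56 and -0.46). With all arrays kept, or within slide row 1, miR-34a-5p passed in 12 of 17 alternatives, miR-455-3p in 9 of 17, miR-455-5p in 9 of 16 and miR-181c-5p in 7 of 17. With a 75th percentile of all probes, miR-455-5p stood at -0.39, miR-455-3p at -0.46 and miR-181c-5p at -0.081, and none of these 3 passed.

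Across the arrays the pattern of each arm was most like that of the other arm, followed by miR-378c. The Pearson correlation of log2 signals over the 6 arrays was computed with the 172 other miRNAs detected on all of them. It was 0.989 between miR-378a-3p and miR-378a-5p, the highest value for either arm. For miR-378a-3p the next were miR-378c (0.984), miR-378d (0.968), miR-378b (0.966) and miR-181b-5p (0.964). For miR-378a-5p they were miR-378c (0.983), miR-181b-5p (0.947), miR-378b (0.944) and miR-378d (0.939). The arrays share their scaling and their group, so these values describe likeness and carry no test. With the group means removed, the correlation between the arms was 0.969. For miR-378a-3p it was then 0.914 with miR-151-5p and 0.913 with miR-99b-5p, both above miR-378b (0.904) and miR-378d (0.902). miR-181b-5p, a miRNA known from lymphocytes, stood at -0.52 ± 0.14 (limma adjusted p = 0.0791) and passed without aged array 3 (-0.66). With a 75th percentile of all probes it stood at -0.10 (limma adjusted p = 0.833).

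By brightness miR-378a-3p ranked 69 and miR-378a-5p ranked 147 among the 193 tested miRNAs, as an order of probe signals and not of amounts. Next to the 3p arm stood miR-20a-5p and miR-106b-5p above it and miR-378b and miR-709 below it. Next to the 5p arm stood miR-1949 and miR-1897-3p above it and miR-181b-5p and miR-532-5p below it. The rank on single arrays was 67 to 74 in aged and 65 to 68 in young kidney for the 3p arm, and 145 to 153 in aged and 142 to 147 in young kidney for the 5p arm.

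Muscle and brown fat are known sites of miR-378a, and their marker miRNAs were read on the same arrays. Of 7 striated muscle markers 6 were not well above background on any array, and miR-1a-3p was on 4 of 6. Their summed scaled signal was 0.0593 to 0.0825 in aged and 0.0686 to 0.101 in young kidney. The 4 brown fat markers summed to 1.11 to 1.21 in aged and 1.06 to 1.21 in young kidney, overlapping ranges. This sum came mostly from miR-365-3p, with a mean log2 signal of -0.014 in aged and -0.15 in young kidney. miR-365-3p and miR-193b-3p stood at 0.13 and 0.19 (limma adjusted p = 0.333 and 0.454), while the much dimmer miR-455-3p and miR-455-5p fell. The liver miRNA miR-122-5p was not well above background on any array. Of 7 blood markers 6 were found on the array by name, and their sum moved with the members, at 6.91 to 7.84 in aged and 8.80 to 9.79 in young kidney, mostly from miR-451a. Of the 5 tested, 0 passed by limma (5 at an unadjusted p under 0.05, against 25.4% of all tested miRNAs). They did not share a direction. The red cell miRNAs miR-451a and miR-144-3p stood at -0.34 and -0.73 and miR-3107-5p at -0.56, while the white cell miRNAs miR-223-3p and miR-142-3p stood at 0.55 and 0.46. The smooth muscle miRNA miR-143-3p also moved with them, at 0.463 to 0.504 in aged and 0.553 to 0.652 in young kidney. The part of blood or smooth muscle in the values of miR-378a was not tested.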

How the data were processed

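Kidney miRNA was measured on 6 Agilent 1-colour arrays (3 aged, 3 young). The array design was 046065 (design build mm9), and images were quantified with Feature Extraction 11.5.1.1, per the file headers. The deposited spot values are fluorescence intensity after the software's own background correction, with no scaling across arrays, and other deposited columns mark outlier, saturated and detected spots, per the file headers. The authors also deposited log2 values, which were checked to equal log2 of the software's total signal for a miRNA minus a constant for the array. How they chose that constant is not stated in the sources here.

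Outlier spots were dropped and the processed intensity averaged per probe, expressed relative to the 75th percentile of 315 probes detected on each array, summed over probes, floored at -5.22 (log2) and log2 transformed. A probe counted as detected if more than 50% of the remaining spots were marked well above background. Fits covered 193 miRNAs, each detected throughout the 3 arrays of either age or both, and used lmFit and eBayes of limma 3.58.1 (R 4.3.3), calling an adjusted p (Benjamini-Hochberg) under 0.05. The arm change has the SE of a difference of 2 means. Files were read with the data.table package (1.17.8) and jsonlite 2.0.0, and figures drawn with matplotlib 3.10.9. The fit was tested on simulated data.

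The members and lists were chosen with earlier results of these data known. Named were the family, the tested members of the intron list and the neighbours, up to 6 tested members of the broader list by p, the 5 miRNAs most like each arm, those next to it in brightness, and the hairpins at both ends of the arm change. Between replicates, 58.4 to 81.0% of probes differed by more than spot noise, so no array was treated as a second deposit of another. This does not show that the RNA came from separate animals. Same-numbered arrays of the 2 ages had correlations of deviations of 0.12, -0.58 and 0.31, so the numbers do not pair the samples. In 2 respects the plan was changed: normexp was run on the median spot signal, the column the files carry, and that alternative and the one within slide row 1 were added after seeing the data.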

Additional observations from a re-analysis of the deposited data

How the results depend on the processing

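With all arrays kept or within slide row 1, each arm of miR-378a was below 0 in 16 of 17 alternatives, and with 1 array left out in 6 of 6. The exception was the 75th percentile taken over all probes (0.044 and 0.10). The count overstates how widely the sign was tried. The smaller floor, the changed detection filters, the replicate block and limma with a variance trend could not move the arms (-0.37 and -0.31). Slide row as a block and within row 1 gave 1 and the same estimate (-0.41 and -0.30), which rests on aged array 1. Unscaled they stood at -0.17 and -0.11, under quantile normalization at -0.20 and -0.089, and with the median over detected probes the 5p arm stood at -0.17. Leaving out 1 array at a time gave -0.47 to -0.29 for the 3p arm, -0.38 to -0.24 for the 5p arm and -0.084 to -0.028 for the change of the arm difference, which was negative in all alternatives (-0.11 to -0.041 with all arrays or within slide row 1). The count of 15 called miRNAs became 2 without scaling (22 at an unadjusted p under 0.05 by limma), 8 with the scanner's total signal, 6 with no detection filter, 5 with slide row as a block, 3 with the replicate number as a block (replicate block), 4 with normexp and 5 to 39 with 1 array left out. In this balanced design the replicate block cannot move a difference of means (-0.37 and -0.31). It changed the SE to 0.077 for the 3p arm and 0.080 for the 5p arm, against 0.12 and 0.10 without the block. Signs turned with the 75th percentile over all probes for miR-378b (0.089), miR-378c (0.067), miR-378d (0.071), miR-143-3p (0.14), miR-145a-5p (0.16) and miR-33-5p (0.21), under quantile normalization for miR-378c (0.14), miR-33-5p (0.37) and the arm change of miR-22 (-0.039), and without scaling for miR-33-5p (0.0037). With slide row as a block or within row 1, miR-103-3p was -0.084 and miR-107-3p -0.014, and with 1 array left out miR-103-3p ran from -0.018 (without aged array 3) to 0.12. The cause of these changes was not tested. The 5p probes and the miR-378c probe lie near background, which limits their precision. Normexp on the mean signal was not run.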
